A study of Mus musculus with 15 samples.

Results

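MEFs treated by TNFα were set directly against MEFs treated by TGFß1, to describe the genes that part the inflammatory from the fibrotic state of one and the same fibroblast. The comparison used the 3 arrays labelled TNFa and the 3 labelled TGFb1, of 15 one-colour Agilent arrays in the series, and all 6 were kept. Both groups were Balb/c/3T3 clone A31 cells, an immortal embryonic fibroblast line that comes from 1 clone and grew in medium with fetal calf serum. One group received 10 ng/ml of recombinant TNFα and the other 5 ng/ml of recombinant TGFß1, and the stimulation lasted 24 hours. This time is from the text of the study, since the labels tie none to a single array. The 3 control arrays, labelled CTRL, were cells of the same line left without a cytokine. The study describes the replicates as independent experiments on this line, so p-values measure the spread between cultures of 1 clone at 1 time and 1 dose.

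Arrays are named by the number in their label. The TNFα arrays were 4, 9 and 14, the TGFß1 arrays 2, 7 and 12, and the control arrays 1, 6 and 11. Values are given in this order throughout. A level is the log2 of the scanner's processed signal minus the 75th percentile of the same array, so a level of 0 is the 75th percentile, and levels of different probes are not compared. The arrays lay on 2 slides, each with its own scan. Arrays 14, 7, 1 and 11 were on slide 1 and arrays 4, 9, 2, 12 and 6 on slide 2, so TNFα and TGFß1 were split alike and the slide was a block in the limma fit. Between 50.8% and 52.9% of probes were well above background on the 6 arrays, and no spot was saturated.

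TNFα binds receptors whose adaptors free the transcription factor NF-κB, which switches on chemokines, cytokines, adhesion molecules and its own inhibitors. TGFß1 binds serine/threonine kinase receptors that phosphorylate SMAD proteins, and in fibroblasts it is known for raising matrix, contractile and integrin genes and for its own feedback inhibitors. Fibroblasts can take on either state, the first of which recruits leukocytes and degrades matrix while the second builds it.

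The arrays carried the markers of fibroblasts. All 10 fibroblast markers were above background on all 6 arrays, among them Col1a1, Thy1, Vim and S100a4, and their summed signal was 1090 to 1420 times the array's 75th percentile with TNFα, 1450 to 2020 with TGFß1 and 1700 to 2100 in controls. Of the 10 leukocyte markers, Ptprc, Adgre1 and Lyz2 were above background on none of the 6 arrays, while Itgam, Csf1r, Cd68, Cd14 and Cd3e were above it on all 6. The summed signal of the leukocyte list ranged from 13.1 to 24.6 with TNFα on the same scale and from 13.1 to 22.2 with TGFß1. The summed epithelial list was higher with TGFß1, from 0.335 to 0.764, than with TNFα, from 0.173 to 0.265, and 7 of its 10 genes, Epcam and Cdh1 among them, were above background on at most 1 array, while Krt18 and Esrp1 were above it on 4 and Krt8 on 3. Of the 10 endothelial markers, Cdh5, Kdr, Tek, Tie1, Emcn, Cldn5 and Esam were above background on none, Vwf on 1, and Pecam1 and Egfl7 on all 6. The part of these markers in the results was not tested.

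Of 28806 probes tested, 3989 (13.8%) differed between MEFs treated by TNFα and MEFs treated by TGFß1 at a q-value under 0.05 and a fold change of at least 1.5 (limma, Benjamini-Hochberg over all probes tested). A probe or gene is called here when it passed both, and every difference is TNFα minus TGFß1 on the log2 scale with its standard error, so that a negative one is higher with TGFß1. The level was higher with TNFα for 2215 probes (7.69%) and higher with TGFß1 for 1774 (6.16%). TNFα thus held 55.5% of the calls, but 44.8% when each array was centred on its median instead, a step that moved the median of all probes by -0.096 on the log2 scale. With the lower bound as the size of each probe that was above background on no array of the dimmer group, at least 4-fold differences numbered 363 higher with TNFα and 223 higher with TGFß1, and at least 16-fold differences 65 and 26. All 3 arrays of one group lay beyond all 3 of the other for 3844 of the 3989 called probes, against 34.6% of all probes tested. Every one of the 3989 differences had the same sign on slide 1, with 1 array of each group, and on slide 2, with 2 arrays of each. The fitted difference combines both slides and the probes were called on these same arrays, so equal signs were favoured in advance. Taken gene by gene, with the brightest probe of each, 1098 genes were called higher with TNFα and 1017 higher with TGFß1, which is 15.8% of 13370 genes. The lists below are counted gene by gene too, so this share is the background of each list count. In the same fit against the shared control arrays, 3671 probes (12.7%) were called for TNFα and 6232 (21.6%) for TGFß1.

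**Figure D1:**
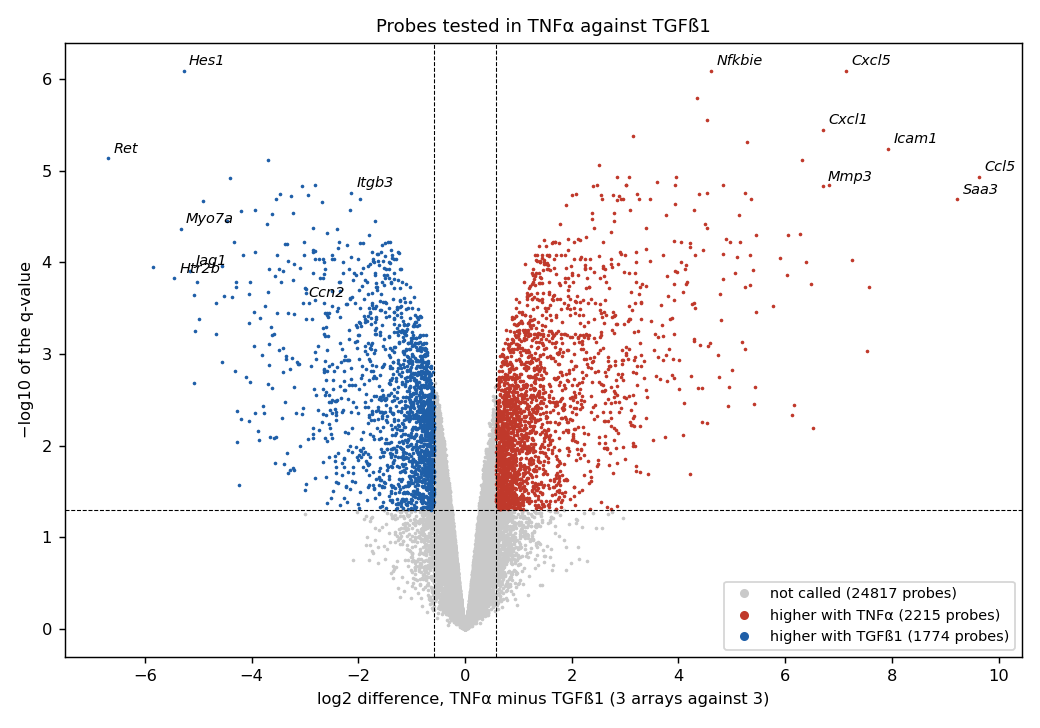
The log2 difference of TNFα minus TGFß1 for each of 28806 probes (x axis) against −log10 of its q-value (y axis), with dashed lines at a q-value of 0.05 and a fold change of 1.5. The red cloud of 2215 probes higher with TNFα reaches 9.63 at Ccl5, while the blue cloud of 1774 probes higher with TGFß1 reaches -5.33 at Myo7a among the probes above background on all 6 arrays. Probes that lie further left, such as Ret, were above background on no TNFα array, so that their place on the x axis is a fitted value and not a measured size.

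The largest differences on the TNFα side were chemokines, acute-phase genes, complement and interferon-inducible genes. Ccl5, a chemokine for T cells and monocytes, stood at 7.64, 8.36 and 8.16 with TNFα and at -1.28, -2.03 and -1.43 with TGFß1. Control arrays were at -0.56, -0.73 and 0.35, so the TGFß1 arrays lay below every control array and the TNFα arrays far above. The difference was 9.63 ± 0.34 (log2, SE, 3 arrays against 3, q = 1.17e-05), which is 792-fold. Saa3, an acute-phase serum amyloid, was at 4.41, 5.91 and 4.44 with TNFα and at -4.16, -5.22 and -3.56 with TGFß1, a difference of 9.23 ± 0.41 (q = 2.05e-05). Its control levels of -2.80, -2.87 and -3.05 also lay between the groups. Array 7 was not above background for Saa3, so the size is a fitted value.

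Icam1, the ligand of leukocyte integrins, was well above background on all TNFα and control arrays and on no TGFß1 array. Its levels were 2.67, 2.59 and 3.18 with TNFα and -4.93, -5.14 and -5.28 with TGFß1, so by this probe it was at least 187-fold higher with TNFα (q = 5.77e-06). A dimmer Icam1 probe, also above background on no TGFß1 array, gave at least 8.95-fold. Such bounds set the mean of the brighter group against the dimmest signal that is well above background on each array of the other group. The gene U90926, with no TGFß1 array above background, was likewise at least 103-fold higher with TNFα. Enpp2, which makes lysophosphatidic acid, stood at 3.89, 4.66 and 4.33 with TNFα and at -3.50, -2.89 and -3.45 with TGFß1. Ch25h, which makes 25-hydroxycholesterol, stood at 4.03, 4.39 and 4.49 against -3.36, -2.24 and -3.24. Both genes were called in opposite directions against the controls, Enpp2 by 3.91 with TNFα and -3.67 with TGFß1, and Ch25h by 5.05 and -2.21.

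The largest differences on the TGFß1 side were of another kind, with a receptor tyrosine kinase, a serotonin receptor, a Notch ligand and a Notch target among them. Ret, the receptor kinase of the GDNF family, was at -0.31, -0.01 and -0.44 with TGFß1 and at -6.97, -6.73 and -7.11 with TNFα. Only the TGFß1 arrays were above background, and Ret was at least 22.6-fold higher with TGFß1 (q = 7.30e-06). Htr2b, a serotonin receptor, was at -0.86, -0.37 and -0.76 with TGFß1, above background on no TNFα or control array, and at least 17.0-fold higher than with TNFα (q = 0.000150) by its brightest probe, beside at least 2.27-fold by a dimmer one. Such genes at the background in both the TNFα and the control group have no order between them.

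Jag1, a membrane ligand of Notch receptors, was measured on every array. It stood at 2.85, 2.41 and 2.98 with TGFß1, at -2.47, -2.85 and -1.90 with TNFα and at -3.13, -3.90 and -2.30 in control cells. The TNFα and control arrays overlapped, and the difference between the cytokines was -5.15 ± 0.37 (q = 0.000124). Whrn, a scaffold protein of sensory hair cells, showed the same layout with 5.25, 4.97 and 4.82 for TGFß1 against 0.46, -0.22 and 0.09 for TNFα and 0.43, -0.23 and 0.23 for controls. Myo7a, an unconventional myosin that is also known from hair cells, and Kif26b, a kinesin, differed by -5.33 ± 0.28 and -4.55 ± 0.31. Both were called higher with TGFß1 and lower with TNFα than in control cells.

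Tcim, 1600027J07Rik, Dmp1, Hmgcll1 and Stard10 were also among the 12 largest fitted differences on that side, but the last 4 were above background on no TNFα array, so that only bounds are known and their rank is not. Dmp1, a bone and dentine matrix protein, was at least 7.86-fold higher with TGFß1, with levels of -2.32, -0.43 and -2.57 and no TNFα or control array above background. Stard10, a lipid transfer protein, was at least 12.0-fold higher and 1600027J07Rik at least 8.60-fold higher. For Tcim 2 of the 3 TNFα arrays were above background, at -3.94 and -4.40, and its TGFß1 levels were 0.52, -0.41 and 0.01.

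**Figure D2:**
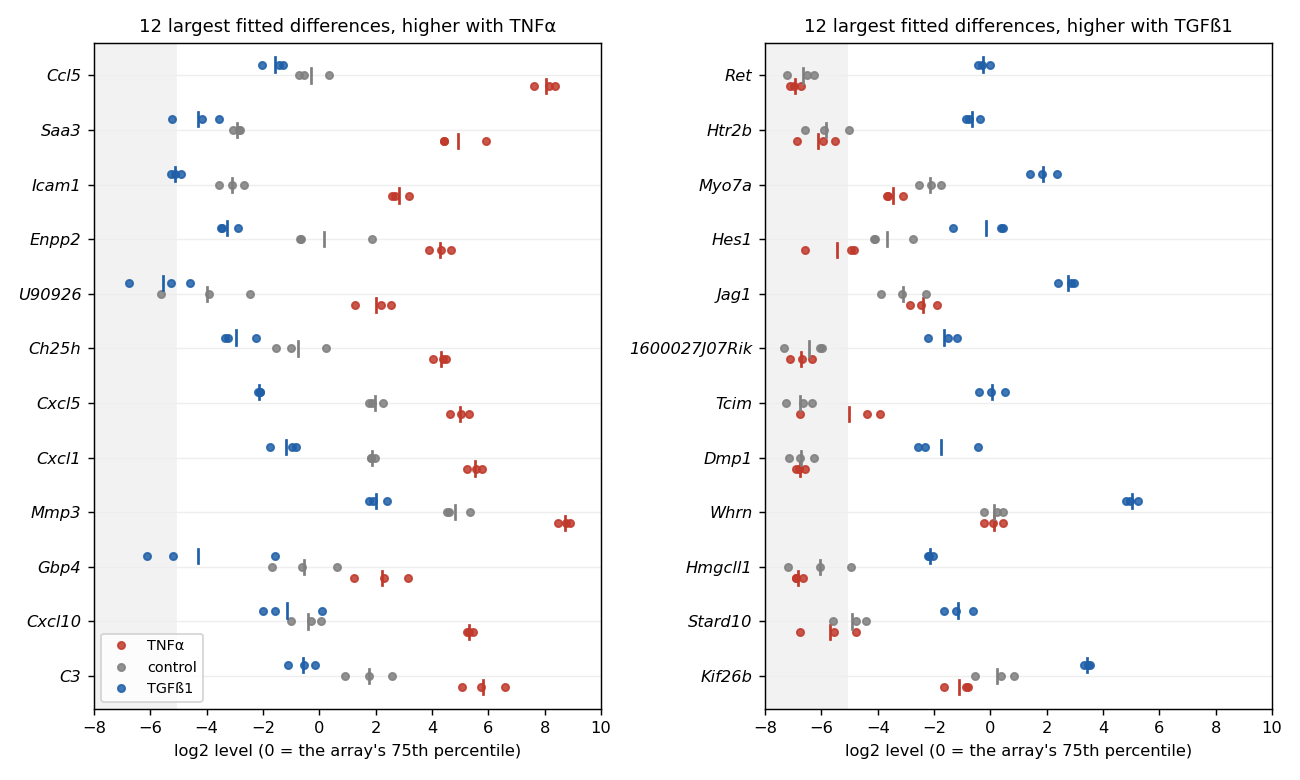
Log2 levels on each of the 3 TNFα (red), 3 TGFß1 (blue) and 3 control (grey) arrays for the 12 largest fitted differences in each direction, with a short line at each mean and a grey band below the dimmest signal that was well above background on any of the 9 arrays. On the left the control points of Ccl5, Icam1 and Cxcl5 lie between the groups, while on the right the TNFα and control points of Ret, Htr2b, Dmp1 and Whrn lie together.

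Chemokines of the CXC and CX3C families, most of which draw neutrophils or T cells, separated the groups most. Of 8 tested, 7 were called higher with TNFα and 1, Cxcl12, higher with TGFß1, beside 1098 and 1017 of all 13370 genes. The median difference of the list was 4.46 against -0.04 over all probes. Cxcl5, a neutrophil chemokine, was at 5.04, 5.32 and 4.65 with TNFα, -2.10, -2.11 and -2.18 with TGFß1 and 1.87, 2.27 and 1.76 in control cells. No group overlapped another, and the difference was 7.13 ± 0.14 (q = 8.12e-07). Cxcl1, of the same function, parted in the same way with 5.78, 5.57 and 5.24 against -0.82, -1.75 and -0.98, around control levels of 1.96, 1.85 and 1.84. Cxcl10, which draws T cells and is induced by interferon, was at 5.30, 5.45 and 5.23 with TNFα, but its TGFß1 levels of -1.59, 0.09 and -1.99 overlapped the control levels of -1.0, 0.06 and -0.31. Cxcl9 was at least 14.9-fold higher with TNFα. Cxcl2 (3.15 ± 0.61, q = 0.0102) and Ppbp (3.01 ± 0.12, q = 1.44e-05) were also called higher with TNFα. The size for Cxcl2 ran from 0.97 to 3.75 between the alternatives of processing with both slides. Cxcl12, a constitutive chemokine of stromal cells, went the other way by -1.03.

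Of 10 CC chemokines tested, 7 were called higher with TNFα and none higher with TGFß1 by limma, where none reached an unadjusted p under 0.05 either. Ccl2, the monocyte chemokine, was at 9.47, 9.42 and 9.41 with TNFα and at 4.34, 5.38 and 4.95 with TGFß1, on either side of control levels of 6.62, 7.00 and 7.01. Ccl7, which shares its receptor with Ccl2, differed less, by 2.15 ± 0.18, since its TGFß1 levels of 5.56, 6.22 and 6.17 overlapped the control levels of 6.16, 6.12 and 6.56. Ccl9 differed by 4.89 ± 0.27, Ccl20 by 3.92 ± 0.30 and Ccl8 by 3.19 ± 0.62. Ccl25, Ccl27a and Ccl28 did not pass the test at -0.13, 0.90 and -0.55.

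Of 20 cytokines and colony-stimulating factors, 12 were called higher with TNFα and 1 higher with TGFß1, although 6 and no longer 12 were called when a probe had to be above background on all 6 arrays. Tslp, an alarm cytokine that acts on dendritic cells, was at least 11.8-fold higher with TNFα. Csf2, which encodes the growth factor GM-CSF, was at 0.54, -0.84 and 0.10 with TNFα against -3.19, -4.60 and -5.13 with TGFß1, a difference of 4.24 ± 0.55 (q = 0.00175). The Csf2 level on array 12 lay below the dimmest signal well above background on that array, so the size is a fitted value. Ifnb1, the type I interferon, was above background on the 3 TNFα arrays alone, at -4.19, -3.87 and -3.44, and at least 1.87-fold higher. Il11, an IL-6 family cytokine, was the exception with 4.35, 3.48 and 4.55 under TGFß1 and 1.43, 0.09 and 1.58 under TNFα (-3.09 ± 0.60, q = 0.0102). Its TNFα levels overlapped the control levels of 2.30, 0.12 and 2.10.

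Acute-phase and complement genes, the soluble arm of innate defence, had 11 of 21 called higher with TNFα and 2 higher with TGFß1. C3, the central complement component, was at 5.07, 6.61 and 5.73 with TNFα, -0.53, -1.11 and -0.14 with TGFß1 and 0.92, 2.57 and 1.76 in control cells, a difference of 6.40 ± 0.43 (q = 9.92e-05). Cfb, a protease of the alternative pathway, differed by 6.04 ± 0.44, with 2 of the 3 TGFß1 arrays above background. Cfi and Cfd, proteases of the same system, were higher with TGFß1, Cfi at least 5.97-fold and Cfd by -2.53. Ptx3, a soluble pattern receptor, took a different route to its difference of 5.11 ± 0.33. Its TNFα levels of 0.53, 1.14 and 1.01 overlapped the control levels of 0.71, 1.31 and 1.58, and its TGFß1 levels were -4.68, -4.31 and -3.65. Over the list the median against control was -0.16 with TNFα and -0.93 with TGFß1, and in the fit against control 6 members were called higher with TNFα and 10 lower with TGFß1.

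Genes of the NF-κB pathway followed, with 21 of 33 called higher with TNFα and 0 higher with TGFß1 by limma, where 2 had an unadjusted p under 0.05 in that direction. The strongest were inhibitors and adaptors of the pathway itself. Nfkbie, an inhibitor that holds NF-κB in the cytoplasm, was at 3.67, 3.67 and 3.61 with TNFα and at -0.87, -1.11 and -0.92 with TGFß1. Control levels of -0.47, -0.11 and -0.26 lay just above those of TGFß1. The difference of 4.62 ± 0.09 (q = 8.12e-07) was among the tightest measured. Tnfaip3, a deubiquitinase that ends the signal, differed by 4.53 ± 0.12 and Nfkbia, the main inhibitor, by 3.14 ± 0.09, and both were called lower with TGFß1 than in control cells, by -0.72 and -0.59. Traf1, an adaptor of TNF receptors, differed by 5.25 ± 0.58, Birc3 by 3.23 ± 0.14 and Tnfaip2 by 2.93 ± 0.13. The NF-κB subunits differed less, from 0.62 for Rela to 2.56 for Relb, and all 5 (Rel, Rela, Relb, Nfkb1 and Nfkb2) were called. The receptors Tnfrsf1a and Tnfrsf1b, at -0.14 and -0.04, and the kinase genes Chuk and Ikbkb, both at -0.20, did not pass the test.

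Promoters of these genes are shown for the motif that NF-κB binds. A kB motif, searched on both strands by its consensus in the 250 bases before to 50 after the RefSeq start (GRCm38.p6), was found in 15.1% of the promoters of genes called higher with TNFα and in 11.8% of those called higher with TGFß1. It was found in 9.69% of the promoters of genes tested and not called, in 8.46% of all promoters and in 35.3% of the 34 promoters of the NF-κB list. A promoter was given for 10646 of the 13370 genes. The following stretches are the 250 bases before the start, 5′ to 3′ on the gene's strand, with the kB matches in capitals, for 3 inhibitors and a chemokine whose differences are given above.
Nfkbie (chr17:45555450-45555699, plus strand): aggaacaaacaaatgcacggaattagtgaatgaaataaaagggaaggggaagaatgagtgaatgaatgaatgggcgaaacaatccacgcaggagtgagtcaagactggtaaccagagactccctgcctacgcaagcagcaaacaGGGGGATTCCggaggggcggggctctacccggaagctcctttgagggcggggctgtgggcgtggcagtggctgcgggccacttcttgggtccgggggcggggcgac
Tnfaip3 (chr10:19015411-19015660, minus strand): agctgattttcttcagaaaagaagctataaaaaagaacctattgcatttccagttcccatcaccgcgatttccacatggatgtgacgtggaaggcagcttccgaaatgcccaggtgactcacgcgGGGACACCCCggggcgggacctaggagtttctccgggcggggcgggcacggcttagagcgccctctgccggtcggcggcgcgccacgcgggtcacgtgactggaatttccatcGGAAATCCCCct
Nfkbia (chr12:55492648-55492897, minus strand): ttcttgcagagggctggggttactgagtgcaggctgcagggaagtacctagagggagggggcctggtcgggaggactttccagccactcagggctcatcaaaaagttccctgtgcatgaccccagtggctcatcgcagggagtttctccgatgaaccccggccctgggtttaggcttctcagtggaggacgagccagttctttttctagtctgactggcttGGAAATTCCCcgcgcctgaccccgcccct
Cxcl10 (chr5:92348890-92349139, minus strand): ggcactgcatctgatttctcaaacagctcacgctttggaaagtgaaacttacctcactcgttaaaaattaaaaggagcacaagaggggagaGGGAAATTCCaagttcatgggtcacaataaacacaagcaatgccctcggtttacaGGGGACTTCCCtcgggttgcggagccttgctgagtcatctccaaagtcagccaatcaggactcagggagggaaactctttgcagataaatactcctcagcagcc

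The match in Nfkbie begins 106 bases before the start and that in Nfkbia 29 bases before it. Tnfaip3 holds 2 matches, at 125 and 12 bases, and the 3 matches of Cxcl10, of which 2 overlap, begin between 159 and 103 bases before the start. A match is a run of letters, and whether NF-κB bound it was not measured.

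Interferon-stimulated genes, which encode antiviral effectors and the guanylate-binding and immunity-related GTPases, were the most uniform of the large lists. Of 41 tested, 39 were called higher with TNFα and 0 higher with TGFß1 by limma, also at an unadjusted p under 0.05, beside 1098 and 1017 calls among all 13370 genes. The remaining pair, Irf5 and Isg20, did not pass the test at -0.27 and -0.12. The median difference was 2.68, made of a median of 1.60 above control with TNFα and -1.05 with TGFß1. Against control 27 members were called higher with TNFα, and 16 lower and 1 higher with TGFß1.

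Gbp5, a guanylate-binding protein, was at 0.13, 1.5 and 0.63 with TNFα against -6.20, -4.11 and -5.81 with TGFß1, a difference of 6.12 ± 0.99 (q = 0.00466). Gbp4 differed by 6.53 ± 1.14, with levels of 1.23, 3.15 and 2.28 against -5.21, -1.59 and -6.13. For both genes arrays 2 and 12 lay below the dimmest signal well above background on those arrays, so the sizes are fitted values. Against control Gbp4 was called by limma neither with TNFα (q = 0.112) nor with TGFß1 (q = 0.0525). The spread within groups was wide, and the highest array of each group was array 9 with TNFα, array 7 with TGFß1 and array 6 among controls. Ifit3, an interferon-induced tetratricopeptide protein, was likewise highest on array 9 (4.99, beside 3.87 and 4.24) and on array 7 (0.71, beside -0.93 and -1.68). Arrays 9, 7 and 6 belong to the label numbers 6 to 10. By the median level of the whole list relative to each gene's mean, arrays 9 (1.84) and 7 (-0.93) were also the highest of their groups. Among controls, however, array 11 was highest (0.28) and array 6 lay at -0.26. With the runs of label numbers as a further block, the calls over all probes numbered 4635. Ifit3b differed by 5.20 ± 0.55 and Ifit3 by 5.00 ± 0.62, but their sequences are alike and their probes may read both genes. Cmpk2 was at least 16.9-fold higher with TNFα, and the transcription factors Stat2, Irf1, Irf7 and Irf9 were called higher by between 1.45 and 2.88.

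The core of the motif for interferon regulatory factors, AANNGAAA on either strand, was found in 65.8% of the 38 promoters of this list, in 26.1% of the promoters of genes called higher with TNFα, in 16.3% of those higher with TGFß1, in 18.0% of those not called and in 23.9% of all promoters. The 250 bases before the start of Gbp5 and Ifit3, which have among the largest differences of the list, show its matches in capitals.
Gbp5 (chr3:142496684-142496933, plus strand): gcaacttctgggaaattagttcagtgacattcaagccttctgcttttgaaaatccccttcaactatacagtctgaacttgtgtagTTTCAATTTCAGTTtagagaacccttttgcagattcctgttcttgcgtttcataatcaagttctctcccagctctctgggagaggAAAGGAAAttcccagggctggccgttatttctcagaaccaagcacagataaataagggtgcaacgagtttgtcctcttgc
Ifit3 (chr19:34583279-34583528, plus strand): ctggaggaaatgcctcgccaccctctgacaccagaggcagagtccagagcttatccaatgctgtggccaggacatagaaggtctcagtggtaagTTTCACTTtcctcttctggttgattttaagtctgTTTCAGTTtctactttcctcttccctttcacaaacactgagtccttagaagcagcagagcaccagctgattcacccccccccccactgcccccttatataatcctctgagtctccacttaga

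Gbp5 holds 3 matches, of which 2 overlap, and those of Ifit3 begin 156 and 122 bases before the start.

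MHC class I presentation, in which the immunoproteasome cuts peptides, TAP transports them and class I chains carry them to the surface, had 17 of 20 genes called higher with TNFα. None was called higher with TGFß1 by limma, although 3 (Calr, Canx and Pdia3, chaperones of the endoplasmic reticulum) reached an unadjusted p under 0.05 in that direction. Differences were smaller than for chemokines, with a median of 1.32 and a maximum of 2.30. Psmb9, an immunoproteasome subunit, was at 3.40, 4.12 and 4.01 with TNFα, 1.29, 2.11 and 1.24 with TGFß1 and 2.79, 3.35 and 3.33 in control cells (2.30 ± 0.28, q = 0.00138). Tapbp, which loads peptides, differed by 1.97 ± 0.16. H2-D1 and H2-Q7 differed by 1.54 ± 0.10 and 1.57 ± 0.10, but class I genes are near copies of each other and a probe can read more than 1 of them.

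Among 16 leukocyte adhesion molecules, 7 were called higher with TNFα and 2 higher with TGFß1. Vcam1, which holds lymphocytes and monocytes, was at 4.88, 5.17 and 5.10 with TNFα and at 1.57, 2.28 and 1.70 with TGFß1, around control levels of 2.65, 3.41 and 3.05 (3.20 ± 0.24, q = 0.000165). Icam5 differed by 2.63 ± 0.24 in the same layout. Cd34 was called lower than control with both cytokines, by -1.29 with TNFα and -4.37 with TGFß1, and so differed by 3.08 ± 0.29. Jam2 and Alcam, at -2.50 ± 0.22 and -2.14 ± 0.34, were the members higher with TGFß1.

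**Figure D3:**
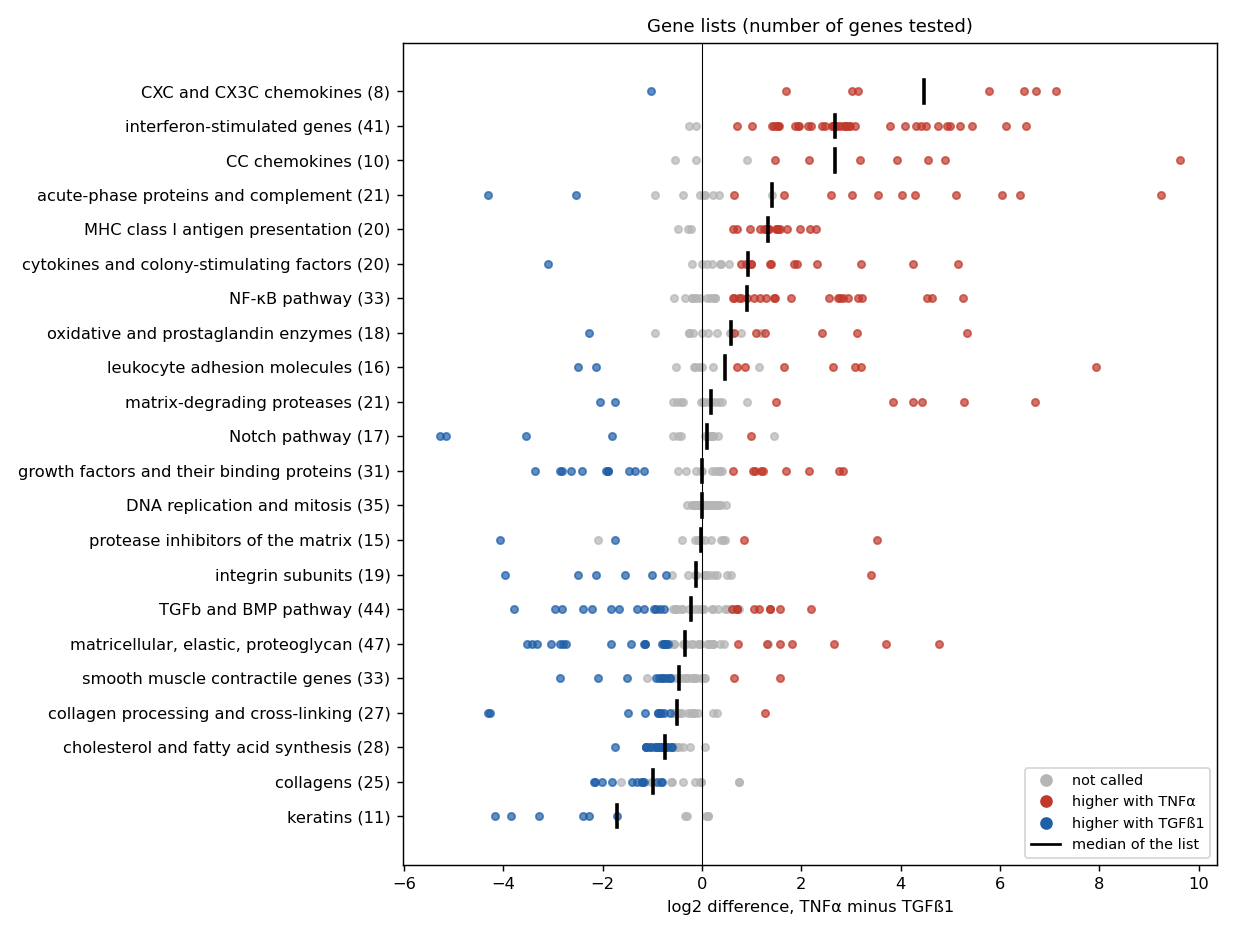
Each point is a gene of the list at the left, placed at its log2 difference of TNFα minus TGFß1, red where called higher with TNFα, blue where called higher with TGFß1 and grey where not called, with a black line at the list's median and the number of genes tested in brackets. Chemokine, interferon and class I lists lie right of 0 with medians from 1.32 to 4.46, keratins, collagens and lipid synthesis lie left of it with medians from -1.72 to -0.75, and DNA replication and mitosis stay at 0.

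Genes that degrade matrix split by member. Of 21 proteases tested, 6 were called higher with TNFα, all of them matrix metalloproteinases, and 2 higher with TGFß1, Plat and Adamts4. Mmp3, stromelysin, was at 8.48, 8.77 and 8.91 with TNFα, 1.76, 2.41 and 1.89 with TGFß1 and 4.52, 5.36 and 4.60 in control cells, a difference of 6.70 ± 0.27 (q = 1.49e-05). Mmp13, a collagenase, was at 3.65, 3.02 and 3.55 with TNFα and at -1.89, -1.77 and -1.98 with TGFß1. Its control levels of -2.42, -2.56 and -2.34 lay below both groups, and it was called higher than control with either cytokine, by 5.91 and 0.62. Mmp9 (4.25 ± 0.37), Mmp10 (3.85 ± 0.36) and Mmp27 (at least 5.29-fold) were also higher with TNFα, while Mmp2, Mmp14 and Mmp19 did not pass the test at -0.58, -0.39 and 0.07.

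Inhibitors of these proteases had 2 of 15 called in each direction, which is 26.7% called beside 15.8% of all genes. These counts rest on few genes. Tfpi2 differed by -4.06 ± 0.68 and Serpinb2 by 3.52 ± 0.66, the latter with a q-value of 0.0501 without array 14. The size for Tfpi2 ran from -4.75 to -1.31 between the alternatives with both slides. Serpine2, the inhibitor protease nexin, was called at 0.85 ± 0.24 and lost its call under 11 of 20 alternatives. Timp1 stood at 6.89, 6.34 and 7.08 with TNFα and at 7.12, 7.26 and 7.14 with TGFß1. The groups did not overlap, but the difference did not pass the test (-0.40 ± 0.22, q = 0.220).

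Collagens lay on the TGFß1 side. Of 25 tested, 12 were called higher with TGFß1 and 0 higher with TNFα by limma, where 1 had an unadjusted p under 0.05 in the latter direction. Among all 13370 genes 1017 were called higher with TGFß1 and 1098 higher with TNFα. Col4a5 and Col8a1 were both 0.75 higher with TNFα, and 1 or 2 collagens were called in that direction under 11 of the alternatives. The median difference of -0.99 came mostly from lower levels with TNFα. The median against control was -0.86 with TNFα and 0.14 with TGFß1, and against control 14 members were called lower with TNFα, while 7 were called higher and 6 lower with TGFß1.

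Col1a1, the main chain of type I collagen, was at 6.14, 6.48 and 6.33 with TNFα, 7.54, 7.84 and 7.76 with TGFß1 and 6.71, 7.36 and 7.26 in control cells. The 3 groups did not overlap, and the difference was -1.40 ± 0.19 (q = 0.00213). Further Col1a1 probes were called at -0.78 (q = 0.00696) and -1.81 (q = 0.00077), so the size varied between probes. Col5a1, which starts type I fibrils, and Col6a3, of the beaded filaments, were in the same order with differences of -2.02 ± 0.22 and -2.17 ± 0.23. Col7a1, the anchoring fibril collagen, differed by as much (-2.16 ± 0.10, q = 2.68e-05), but its TNFα levels of 4.93, 4.89 and 5.23 met the control levels of 5.23, 5.00 and 5.45. Col5a3 was called higher than control with both cytokines, by 1.36 with TNFα and 3.17 with TGFß1. Col3a1, of reticular fibres, went below control with TNFα by -2.14 and had 4.79, 6.12 and 5.35 with TGFß1 beside 6.13, 7.15 and 6.51 in controls. Its difference between the cytokines did not pass the test (-0.99 ± 0.41, q = 0.127), and the groups overlapped.

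Enzymes that process and cross-link collagen had 10 of 27 called higher with TGFß1 and 1, Adamts14, higher with TNFα. Pcolce2, an enhancer of procollagen cleavage, was at 2.14, 1.51 and 2.29 with TGFß1 and at -1.81, -3.50 and -1.69 with TNFα (-4.31 ± 0.54, q = 0.00153). The protease Tll1 differed by -4.27 ± 0.81, with TNFα levels that spread from -4.51 to -1.95 and a q-value of 0.0528 without array 14, and a dimmer probe of it by -1.35. Adamts2, which removes the amino-terminal propeptide, was at control level with TGFß1 (0.03) and lower with TNFα (-1.46). Adamts14, of the same function, went the other way by 1.26 ± 0.09 (q = 0.000132). Bmp1, Plod1, Plod2, P4ha2, Loxl3, Fkbp10 and Serpinh1 were called higher with TGFß1, with differences from -1.15 to -0.64. Lox, Loxl1, Loxl2 and Loxl4, the other lysyl oxidases, did not pass the test at -0.40, -0.09, -0.57 and 0.31.

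Matricellular proteins, elastic fibre proteins and proteoglycans divided, with 18 of 47 called higher with TGFß1 and 7 higher with TNFα. Without array 14 the first count was 11. Ccn2, a matricellular protein long used as a marker of fibrosis, was at 5.17, 5.47 and 5.24 with TGFß1 and at 2.42, 1.67 and 2.65 with TNFα (-3.04 ± 0.26, q = 0.000276). Its TNFα levels overlapped the control levels of 2.52, 1.33 and 2.79. Ccn3, of the same family, went the opposite way and was at least 10.1-fold higher with TNFα. Fn1, fibronectin, was at 8.11, 8.42 and 7.85 with TGFß1 against 7.23, 6.92 and 6.72 with TNFα (-1.17 ± 0.20, q = 0.00575).

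The small leucine-rich proteoglycans were on both sides. Dcn, decorin, which binds collagen fibrils and TGFß, was at 7.41, 8.07 and 7.33 with TNFα, 4.08, 4.30 and 3.28 with TGFß1 and 5.44, 6.45 and 5.17 in control cells (3.71 ± 0.38, q = 0.000646). Lum was also called higher with TNFα, by 2.66, while Fmod and Aspn were called higher with TGFß1, by -2.74 and -3.32 ± 0.77. The q-value of Aspn was 0.0571 without array 12, 0.0720 without array 7 and 0.0631 without array 14. Sparcl1 reached its difference of -3.52 ± 0.32 through TNFα, with -2.59, -2.06 and -2.46 against 0.78, 1.69 and 0.97 for TGFß1 and 1.13, 2.11 and 1.57 for controls. Smoc1 differed by -3.42 ± 0.24.

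Smooth muscle contractile genes, which define the myofibroblast, had 10 of 33 called higher with TGFß1 and 2 (Mylk and Tpm1) higher with TNFα, of which Mylk lost its call under 9 of 20 alternatives. Without the slide in the model the first count was 6. Cnn1, calponin, was at 1.82, 2.45 and 3.05 with TGFß1 and at -0.82, -1.07 and 0.65 with TNFα (-2.85 ± 0.52, q = 0.00742). Tagln was at 3.98, 4.38 and 4.43 against 2.21, 1.53 and 2.75 (-2.10 ± 0.31, q = 0.00333). Both groups of TNFα levels overlapped the controls. Palld, an actin scaffold, was called on either side of control, by -0.72 with TNFα and 0.79 with TGFß1. The cytokines differed by -1.50 for this probe, and further Palld probes were called at -0.74 and -1.74. Acta2, smooth muscle actin and the usual myofibroblast marker, was at 7.80, 7.89 and 8.60 with TNFα and at 7.74, 8.31 and 8.13 with TGFß1. The groups overlapped each other and the control levels of 7.52, 7.13 and 8.37, and none of the 3 comparisons passed the test. A further Acta2 probe gave -0.30 (q = 0.134). A CArG box, the site of serum response factor, was found in 24.4% of the 41 promoters of this list, in 2.51% of promoters of genes called higher with TGFß1, in 1.17% of those higher with TNFα and in 1.63% of all promoters. Srf, the gene of that factor and a member of the list (-0.64, called higher with TGFß1), has both of its matches shown in capitals.
Srf (chr17:46556163-46556412, minus strand): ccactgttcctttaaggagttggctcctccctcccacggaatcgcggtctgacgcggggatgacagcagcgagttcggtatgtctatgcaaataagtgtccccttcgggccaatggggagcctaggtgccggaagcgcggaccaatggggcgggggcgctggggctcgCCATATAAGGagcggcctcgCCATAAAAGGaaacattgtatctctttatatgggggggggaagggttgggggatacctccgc

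The matches of Srf begin 82 and 62 bases before its start.

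Integrin subunits, the receptors that join cells to this matrix, had 6 of 19 called higher with TGFß1 and 1, Itga2, higher with TNFα (at least 3.08-fold). Itga11, a collagen receptor of fibroblasts, was at 0.54, 2.10 and 1.02 with TGFß1, -3.26, -2.29 and -2.65 with TNFα and -0.74, -0.51 and -0.38 in control cells (-3.96 ± 0.36, q = 0.000353). Itgb3, at 4.29, 4.66 and 4.35 against 2.23, 2.11 and 2.56, differed by -2.13 ± 0.09 (q = 1.75e-05). Itga5 and Itgb1, which together form the fibronectin receptor, differed by -1.54 ± 0.19 and -1.01 ± 0.11, and Itgav by -0.72.

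In the TGFß and BMP pathway 13 of 44 genes were called higher with TGFß1 and 9 higher with TNFα, of which 4 were called without array 14. Among the ligands, Tgfb3 was at 4.76, 5.41 and 5.00 with TGFß1 and at 1.89, 2.11 and 2.33 with TNFα, next to control levels of 2.57, 2.34 and 2.88 (-2.95 ± 0.13, q = 1.84e-05). Tgfb2 differed by -2.81 ± 0.17 and the activin subunit gene Inhba by -2.40 ± 0.35. Tgfb1 itself was called higher than control with both cytokines, by 0.99 with TNFα and 1.76 with TGFß1, and differed by -0.77 ± 0.23 (q = 0.0473), a call lost under 11 of 20 alternatives with q-values up to 0.153. A second Tgfb1 probe was called at -0.97 (q = 0.0141), for which the alternatives were not counted. Of the feedback inhibitors of SMAD signalling, Pmepa1 (-2.22 ± 0.19), Skil (-1.30), Smad7 (-1.16) and Smurf2 (-0.84) were called higher with TGFß1. Other inhibitors in the list, Bambi (-0.58), Ski (-0.53), Tgif1 (-0.40), Smurf1 (0.04) and Smad6 (0.33), were not called. Bmpr1b, a BMP receptor, was above background on no control array and was called higher than control with both cytokines, reaching 0.69, 0.87 and 0.13 with TGFß1 and -2.04, -4.36 and -3.26 with TNFα. On the TNFα side stood the antagonists Fst, which traps activin (2.20 ± 0.23), and Grem1 (1.58), and the BMP target genes Id1, Id2 and Id4 (0.71, 1.37 and 1.15). Antagonists were on both sides, since Fstl3 (-1.84) and Nbl1 (-1.67) were called higher with TGFß1. The activin subunit gene Inhbb was called higher with TNFα (1.36), unlike Inhba. Smad2, Smad3 and Smad4 did not pass the test at -0.17, -0.02 and -0.27.

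Of 17 genes tested in the Notch pathway 29.4% were called, beside 15.8% of all genes. In this list 4 were called higher with TGFß1 and 1, the DNA-binding factor Rbpj, higher with TNFα (0.98 ± 0.11). Beside Jag1, these were Hes1, a repressor that Notch induces, the receptor gene Notch4 and the coactivator Maml3. Hes1 was at 0.37, -1.34 and 0.46 with TGFß1 and at -4.83, -4.94 and -6.57 with TNFα, at least 23.9-fold higher with TGFß1 (q = 8.12e-07). Arrays 7 and 14, both on slide 1, were the low ones of their groups. No TNFα array was above background for Hes1, so the differences among its TNFα levels are not measured sizes, though they enter the q-value. Notch4 was at 1.44, 2.17 and 1.25 against -1.79, -2.19 and -1.77, with control levels of -1.82, -2.30 and -1.82 (-3.54 ± 0.16, q = 2.05e-05). Notch1, Notch2 and Notch3 did not pass the test at 0.33, -0.48 and 0.21. When a probe had to be above background on all 6 arrays the count of 4 became 2.

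Keratins, filaments of epithelial cells, had 6 of 11 called higher with TGFß1 and none higher with TNFα by limma, also at an unadjusted p under 0.05. These 6 were above background on at most 1 of the 3 TNFα arrays. Without array 2 or without array 14 the count was 3, and no keratin passed when all 6 arrays had to be above background. Krt8 was above background on the 3 TGFß1 arrays alone, at -2.70, -3.45 and -3.05, and at least 3.20-fold higher than with TNFα. Krt13 and Krt15 were lower than control with both cytokines. Krt15 was at 1.16, 1.05 and 1.39 in control cells, at -4.63, -3.87 and -3.61 with TGFß1 and above background on no TNFα array.

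Growth factors were divided, with 11 of 31 called higher with TGFß1 and 9 higher with TNFα. Vegfa, the angiogenic factor, was at 5.33, 5.44 and 5.23 with TGFß1, 2.99, 1.82 and 2.77 with TNFα and 1.80, 0.53 and 1.35 in control cells, higher than control with both (-2.81 ± 0.32, q = 0.000947). Of its 3 further probes, 2 were called at -2.65 and -2.88 and 1 was not (-0.82, q = 0.063). Pdgfa (-2.64 ± 0.33), Fgf21 (-3.37 ± 0.20), Fgf2 (-1.94) and Hbegf (-1.90) were higher with TGFß1. Fgf1 (2.83 ± 0.50), Fgf10 (2.75 ± 0.25) and Fgf7 (1.69) were higher with TNFα, though a second Fgf1 probe was not called (0.38, q = 0.318). Fgf10 was at control level with TNFα, at -1.21, -0.67 and -1.11 beside -0.70, -1.06 and -1.05, and at -4.28, -3.20 and -3.75 with TGFß1.

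Enzymes of oxidative and prostaglandin metabolism had 6 of 18 called higher with TNFα and 1, Sod3, higher with TGFß1, though Sod3 lost its call under 7 of 20 alternatives. Acod1, which makes itaconate, was at -1.36, -0.37 and -0.82 with TNFα. It was above background on no TGFß1 or control array, and was at least 14.7-fold higher with TNFα than with TGFß1. Sod2, the mitochondrial superoxide dismutase, was at 3.19, 3.53 and 3.53 against 2.09, 2.25 and 2.15 (1.26 ± 0.11, q = 0.000254). Xdh differed by 3.12 ± 0.25 because it was lower than control with TGFß1 (-3.04) and near control with TNFα (0.08).

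Enzymes of cholesterol and fatty acid synthesis formed a group on the TGFß1 side in which TNFα was the low arm. Of 28 tested, 19 were called higher with TGFß1 and 0 higher with TNFα by limma, also at an unadjusted p under 0.05, and 8 without array 14. For 26 of the 28 all TGFß1 arrays lay above all TNFα arrays, beside 34.6% of all probes that did not overlap in either direction. The median difference was -0.75, with medians of -0.76 against control for TNFα and 0.10 for TGFß1. Hmgcs1, of the mevalonate pathway, was at 4.91, 5.33 and 5.16 with TNFα, 5.97, 6.63 and 5.93 with TGFß1 and 6.49, 6.33 and 6.40 in control cells (-1.04 ± 0.17, q = 0.00460). Cyp51 and Insig1 had the same layout, with differences of -1.13 ± 0.17 and -1.12 ± 0.17. The sterol regulators Srebf1 and Srebf2 did not pass the test at 0.06 and -0.38.

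Genes of DNA replication and mitosis did not part the states at this precision. None of 35 tested was called in either direction by limma, while 7 had an unadjusted p under 0.05 towards TNFα and 1 towards TGFß1. Their differences ran from -0.30 to 0.48 with a median of 0.00, and Mki67 and Top2a were at 0.27 and 0.03.

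**Figure D4:**
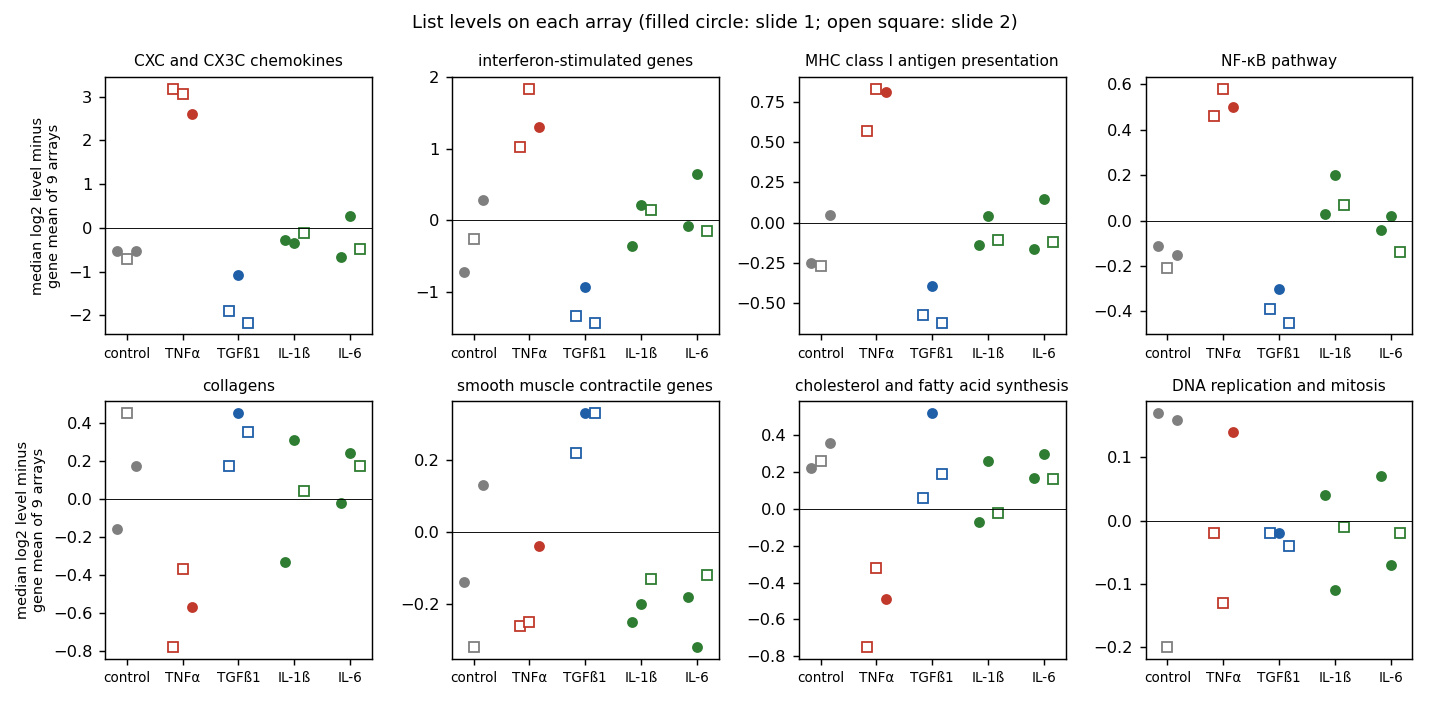
For 8 lists, each point is 1 array, at the median over the list's genes of the log2 level minus that gene's mean over the 9 control, TNFα and TGFß1 arrays, with filled circles on slide 1 and open squares on slide 2. For the interferon list the TNFα arrays are at 1.03, 1.84 and 1.31 and the TGFß1 arrays at -1.34, -0.93 and -1.43, whereas for lipid synthesis the TNFα arrays (-0.75, -0.32 and -0.49) lie below the control arrays (0.22, 0.26 and 0.36).

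The 26 genes that the study chose as a signature of both states were all tested. Since they were picked with these samples, their counts are no independent evidence of direction. Of the 26, 9 were called higher with TNFα and 14 higher with TGFß1. Tnf, Acta2 and Timp1 were called in neither direction. Tnf was at -2.64, -2.29 and -3.48 with TNFα and at -3.16, -3.96 and -2.93 with TGFß1. It had a q-value of 0.0160, but a fold change of 1.46, under the threshold, and the groups overlapped. It was called without array 12 (0.60), 7 (0.59) or 4 (0.64). Il6 was near the threshold with 0.98 ± 0.27 (q = 0.0389), TNFα levels of -2.37, -2.13 and -2.49 and TGFß1 levels of -3.73, -2.69 and -3.50. Its TNFα arrays lay among the control levels of -2.66, -2.20 and -2.13, and the call was lost under 9 of 20 alternatives, with a q-value of 0.129 without array 9. A second Il6 probe was called at 1.46 (q = 0.0458), for which the alternatives were not counted.

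**Figure D5:**
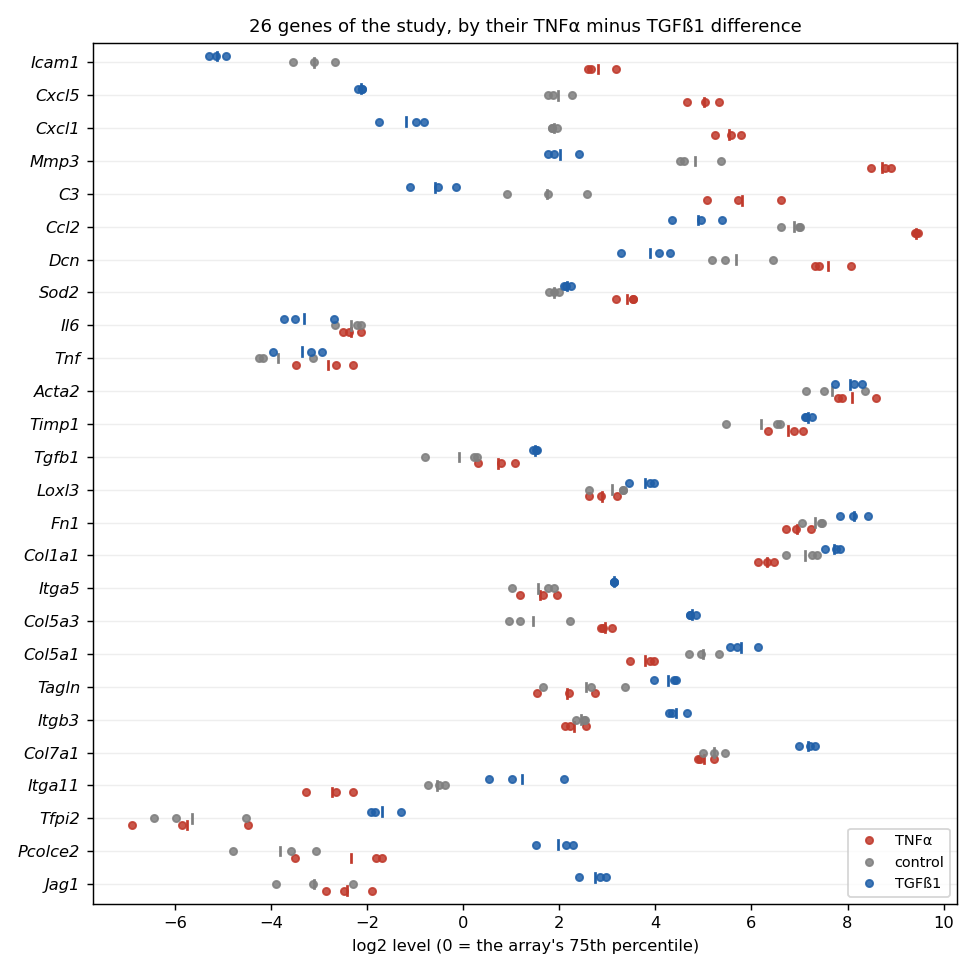
Log2 levels of the 26 genes on each TNFα (red), TGFß1 (blue) and control (grey) array, ordered by the fitted difference from Icam1 to Jag1, with a short line at each mean. The groups part without overlap from Icam1 to Il6 and from Timp1 to Jag1, and overlap for Tnf and Acta2.

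Some bright genes moved alike under both cytokines and so did not part the states. Mdm2, the inhibitor of p53, was at 6.92, 6.64 and 6.70 with TNFα, 6.83, 6.76 and 6.61 with TGFß1 and 6.46, 5.71 and 5.99 in control cells, and was called higher than control with each. Ltbp2, a latent TGFß-binding protein, was called higher by 1.30 and 1.36. Sptbn1, a spectrin, was called lower by -1.05 with TNFα and -0.97 with TGFß1, and Ndufv3, of respiratory complex I, by -0.93 and -0.90. These comparisons share the control arrays.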

How the data were processed

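Total RNA of MEFs was labelled with Cy3 and hybridised to one-colour Agilent mouse arrays. The deposited files, per the file headers, are the output of Agilent Feature Extraction 10.7.3.1, and the column used is the authors' scanner intensity after background subtraction (processed signal), 1 file an array. The authors' series table repeats these linear intensities (largest difference 0), with no log or scaling between arrays, and was used only for that check.

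From there, log2 of the processed signal minus the array's 75th percentile was taken in R 4.3.3, control and outlier spots were left out and spots of a probe averaged, giving 56605 probes. Tested probes were those that the scanner software marked as well above background throughout the control, the TNFα or the TGFß1 group. The fit (limma 3.58.1) held the 9 control, TNFα and TGFß1 arrays with the slide as a block, two-sided, with Benjamini-Hochberg over 28806 probes. Of these, 19934 had a gene name through RefSeq (GRCm38.p6), and the brightest probe stood for its gene. A gene is named in the text if it was among the 12 largest differences in a direction, among up to 6 called members of a list, among the 26 genes of the study or the defining genes (Acta2, Fn1, Timp1, Tgfb1, Tnf, Il6, Col1a1, Col3a1), or among the 8 brightest genes that differed by at most 0.1 and were called in 1 direction against control in both groups. Other list members are named as examples, chosen after their values were seen. Members and lists were chosen with earlier results of these data known. Some genes that the rule names are not reported here. No set test was run. The number of arrays limits the precision. The steps were tested on simulated data.

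Alternatives were: no slide, 6 or 15 arrays, label-number runs, background correction, scaling, filters, outlier spots, prior variance, each array left out, and each slide alone. The normexp correction (offset 50) used median spot signals, since the files give no mean signal.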

Additional observations from a re-analysis of the deposited data

Results flagged for a closer look

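For 46 of the genes named here all 3 TNFα arrays lay on one side of all 3 control arrays and all 3 TGFß1 arrays on the other side. The difference of TNFα minus TGFß1 is given for each, on the log2 scale, or a lower bound of the fold where the dimmer group was above background on no array. Both effects are set against the same control arrays, so a control level that is off by chance moves both, and this placing of the groups was not tested by itself. Of the 157 genes named by the rule 145 were called, and only called genes were counted here. The rule picked genes with large differences on these arrays, so such placing was favoured, and its share over all probes was not counted.

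The genes above control with TNFα and below it with TGFß1 were, with their differences, Ccl5 9.63, Saa3 9.23, Enpp2 7.57, Ch25h 7.25, Cxcl5 7.13, Cxcl1 6.72, Mmp3 6.70, C3 6.40, Cfb 6.04. Then came Ccl9 4.89, Nfkbie 4.62, Ccl2 4.54, Tnfaip3 4.53, Dcn 3.71, Birc3 3.23, Vcam1 3.20. The smallest of this kind were Nfkbia 3.14, Ppbp 3.01, Tnfaip2 2.93, Fgf1 2.83, Icam5 2.63, Psmb9 2.30, Tapbp 1.97, H2-Q7 1.57, H2-D1 1.54. Icam1 was at least 187-fold, Cmpk2 16.9-fold, Tslp 11.8-fold and Ccn3 10.1-fold higher with TNFα. A second probe of Fgf1 was not called (0.38), and Saa3 and Cfb were above background on 2 of the 3 TGFß1 arrays. The genes of this kind are mostly chemokines, NF-κB inhibitors, adhesion molecules, complement and class I genes, beside decorin (Dcn).

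The genes below control with TNFα and above it with TGFß1 were, from the smallest difference, Cnn3 -0.87, Pdgfrb -1.05, Bmp1 -1.15, Col1a1 -1.40, Palld -1.50, Col5a1 -2.02, Col6a3 -2.17, Jam2 -2.50, Itga7 -2.50. The larger differences were Tgfb2 -2.81, Tgfb3 -2.95, Fgf21 -3.37, Smoc1 -3.42, Itga11 -3.96, Kif26b -4.55, Myo7a -5.33. Hes1 was at least 23.9-fold higher with TGFß1. Collagens, TGFß ligands and integrins are among them.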

How the results depend on the processing

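No alternative turned the direction of a called named gene, and no probe was called in opposite directions. Of 145 called genes named by the rule, 127 were called under each of the up to 20 alternatives with both slides in which they were tested, and 18 lost the call under at least 1 (Aspn, Cd14, Fap, Ifnb1, Il6, Il7, Krt15, Krt18, Krt19, Krt20, Lif, Maml3, Mylk, Serpinb2, Serpine2, Sod3, Tgfb1 and Tll1). The 3989 calls became 2633 after normexp on median signals, with 1282 higher with TNFα, 740 on slide 1 alone (345 with TNFα, 395 with TGFß1) and 2368 on slide 2 alone (1354 and 1014). Leaving out 1 array gave 2819 (without array 14) to 4090 calls. Of the 18, Ifnb1, Krt15, Lif and Maml3 lost it under normexp alone, with fitted differences of 0.57, -0.45, 0.19 and -0.38. Array 14 was the array left out for Serpinb2 and Tll1, and arrays 2 and 14 for Il7 (q = 0.0519 and 0.0714). The others lost it without several arrays, with q-values up to 0.0583 for Cd14 without array 9, 0.176 for Fap without array 14 and 0.125 for Serpine2 without array 2. Il7 and all of these others also lost it with every array kept and no filter, for example Il7 (q = 0.053) and Cd14 (q = 0.0667). Without the slide block the call was lost for Tgfb1 (q = 0.143), Serpine2 (q = 0.0846) and Mylk (q = 0.0504). Col3a1 was called (q = 0.00106) with the label-number runs as a block, and Tnf without array 12, 7 or 4. The label numbers do not repeat between groups, so arrays can be paired only by the run of numbers, which the labels do not call an experiment. With the runs as a replicate block beside the slide, 4635 probes were called, 2600 higher with TNFα and 2035 higher with TGFß1.

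List counts on slide 1 alone are left out, since with 1 array of each cytokine the spread there came from the control arrays. In the leading direction of each list, slide 2 alone left 6 of 12 calls for cytokines and 5 of 10 for collagen processing. It left 9 of 18 for matricellular genes and 3 of 19 for lipid synthesis. With fewer arrays each test has fewer degrees of freedom. Requiring all 6 arrays above background left 6 cytokines, 2 Notch genes and 0 keratins, which removes genes dim in 1 group. No filter left 11 matricellular genes and 3 keratins, normexp 3 keratins, and no slide block 6 contractile genes, of which the cause was not tested. Leaving out 1 array gave 11 to 18 matricellular genes, 3 to 6 keratins and 8 to 21 lipid synthesis genes. Depth here is signal over background, and 284 probes called higher with TNFα and 145 called higher with TGFß1 were above background on no array of the other group.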

Other observations

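The series also holds 3 arrays of cells given IL-1ß and 3 of cells given IL-6 together with soluble IL-6 receptor. The comparison did not use these arrays. IL-1ß was given at 1 ng/ml and IL-6 at 20 ng/ml, while TNFα was given at 10 ng/ml. No stimulation time is given for the IL-1ß and IL-6 arrays. Their levels are thus not matched to those of TNFα or TGFß1 in dose, and may not be in time. The values of the IL-1ß and IL-6 arrays are descriptions with no test, in the order of the label numbers. The neutrophil chemokines Cxcl5 and Cxcl1 stood above the TNFα levels with IL-1ß, while Cxcl2, at -5.29, -5.93 and -5.61, lay below its TNFα levels of -1.93, -2.31 and -2.79. Cxcl5 was at 6.88, 7.11 and 7.28 with IL-1ß, where TNFα gave 4.65 to 5.32, and Cxcl1 was at 5.86, 6.08 and 6.13, where TNFα gave 5.24 to 5.78. C3 was at 4.70, 6.95 and 5.66 and Saa3 at 3.82, 5.88 and 3.86 with IL-1ß, overlapping the TNFα arrays, which lay between 5.07 and 6.61 for C3 and between 4.41 and 5.91 for Saa3.

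Other TNFα genes did not go that far with IL-1ß. Ccl5 was at 2.65, 2.41 and 2.50, Icam1 at -1.44, -1.35 and -0.79, and Cxcl10 at 0.78, 0.76 and 1.19, all between the TNFα and TGFß1 levels. The interferon list as a whole was at medians of -0.36, 0.22 and 0.14 relative to each gene's mean, among the control arrays. Of the genes highest with TGFß1, Ret was at -7.14, -7.14 and -6.99 with IL-1ß and at -6.90, -6.74 and -6.14 with IL-6, far below its TGFß1 arrays. Jag1 was at -3.12, -3.68 and -2.93 with IL-1ß and at -3.17, -3.73 and -2.81 with IL-6, also below all TGFß1 arrays and overlapping the controls.

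Of the 2215 probes called higher with TNFα than with TGFß1, the mean of the IL-1ß arrays lay nearer to TNFα for 73.5%, that of IL-6 for 61.9% and that of the controls for 60.6%. Of the 1774 called higher with TGFß1 it was 75.1%, 66.9% and 67.6%. These shares were not tested.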
